A study of Mus musculus with 2 samples.

Results

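The collagens of cartilage fibrils and of the growth plate were followed in rib chondrocytes of mice with the V156D mutation of Matn1, the gene of matrilin-1, and of wild-type mice. The 8 genes were Col2a1 for collagen II, Col9a1, Col9a2 and Col9a3 for collagen IX, Col10a1 for collagen X, Col11a1 and Col11a2 for collagen XI and Col27a1 for collagen XXVII. They were chosen by name, as every probe set that the platform annotation tied to 1 of these symbols alone, which gave 13 of the 45037 probe sets on the array. A probe set is a group of short probes for 1 transcript on the Affymetrix Mouse Genome 430 2 array, and its intensity is given in arbitrary units on a linear scale.

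There were 2 samples, 1 V156D knock-in and 1 wild type, both of rib cartilage at 5 days of age and each measured on 1 array. The submitters' description has RNA extracted from the combined chondrocytes of 5 littermates of known genotype, released from dissected ribs with collagenase. Whether the knock-in was heterozygous or homozygous, the strain, and whether each genotype combined 5 animals could not be taken from the labels. With 1 array per genotype the spread between animals was not measured, no difference was tested, and the values below describe these arrays only, with a precision limited by their number. A difference was counted when the intensities differed at least 1.5-fold, and signals were read as above the floor when their mean log2 over both arrays reached the 50th percentile of the array, an intensity of 54.6.

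Both arrays carried the signature of chondrocytes. All 10 chondrocyte markers on the list, Col2a1 among them, lay at or above the floor, with a median of 0.05 for the log2 ratio (mutant over wild type, as throughout). None differed 1.5-fold, which with 3.72% of all genes at or above the floor doing so lies near the background. The highest was Cnmd at 0.07 and the lowest Sox9, at -0.29 and -0.49 by its 2 probe sets. Matn1 itself, which carries the mutation, had an intensity of 4340 in the mutant and 4373 in wild type, and these probes were not made to separate the alleles. The fibroblast, tendon and perichondrium list also gave signal on both arrays, with all 12 genes at or above the floor by mean log2. Its summed intensity was 73243 in the mutant and 46144 in wild type, and no gene was listed at 0. In wild type alone Scx, at 50.1, lay below the floor and Thy1, at 58.3, near it. In bulk RNA, fewer cells of a type and less RNA per cell cannot be told apart.

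Collagen fibrils of cartilage are built from collagen II with collagen XI inside and collagen IX on the surface. Collagen II is a homotrimer of the Col2a1 chain, collagen IX joins a chain from each of its genes, and collagen XI joins the products of Col11a1 and Col11a2 with a chain made from Col2a1. Collagen X is a short-chain collagen that forms networks and marks hypertrophic chondrocytes of the growth plate, and collagen XXVII is a fibrillar collagen of developing cartilage. Matrilins, including the mutated matrilin-1, are oligomeric proteins that connect such fibrils with other matrix components, and the comparison addresses whether the chondrocytes carried different amounts of the collagen transcripts.

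The cartilage collagen transcripts had nearly equal signals in the mutant and wild-type arrays. Of the 13 probe sets, 12 were at or above the floor, 6 with a log2 ratio above 0 and 6 below 0, and their median was -0.00, against -0.02 over all 22519 probe sets at or above the floor. None of the 12 differed 1.5-fold, whereas 3.53% of all probe sets at or above the floor did, so a count of 0 among 12 lies near the background. At 1.2-fold 2 of the 12 differed, both lower in the mutant, against a background of 23.1% in either direction and 13.5% lower. The remaining 10 had log2 ratios within 0.15 of 0.

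The collagen probe sets were among the brightest on the arrays. Ratios of such bright probe sets lay closer to 0 than those of all probe sets at or above the floor. All 12 lay in the top 2% of mean signal, a band taken after the values were seen. In that band of 901 probe sets the median size of the log2 ratio, disregarding sign, was 0.09, against 0.14 for all probe sets at or above the floor. The same quantity was 0.04 for the 12 collagen probe sets. A log2 ratio within 0.15 was found for 68.1% of the band, against 83.3% of the 12, and a 1.2-fold difference for 12.4% of the band. Intensities of different probe sets depend on the probes as well as the transcript, so their order is not an order of transcript amounts.

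**Figure D1:**
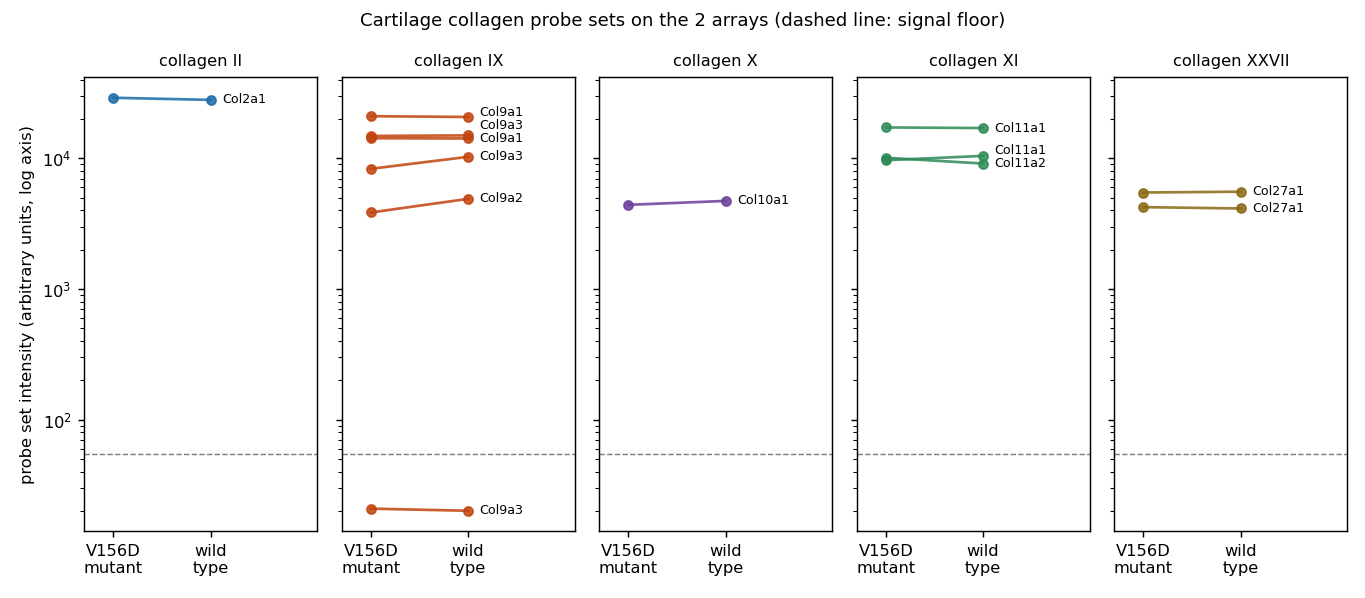
Intensity of the 13 cartilage collagen probe sets (vertical log axis, arbitrary units) on the mutant and the wild-type array, 1 point per array with a line joining the points of a probe set, in 1 panel per collagen type. The lines are close to level except those of Col9a2 and 1 Col9a3 probe set, and the Col9a3 probe set under the dashed floor is at 20.9 in the mutant and 20.1 in wild type.

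Collagen II, the main collagen of cartilage, had a single probe set. Col2a1 (1450567_a_at) had an intensity of 29057 in the mutant and 27997 in wild type, a log2 ratio of 0.05. This probe set gave the highest value on each array, and quantile normalization, which sets the highest values equal, therefore returned 0. The splice forms of Col2a1, which differ by an exon encoding a domain of the propeptide, were not told apart here.

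Collagen IX held both the steadiest and the lowest values of the family. Col9a1, whose product carries a large globular domain in its long form, had 21007 in the mutant and 20722 in wild type by its brighter probe set (1428571_at). Its other probe set (1421381_a_at) had 14242 in the mutant and 14195 in wild type. The log2 ratios were 0.02 and 0.00, so both Col9a1 probe sets gave the same level on the 2 arrays. Col9a2 (1450673_at), the gene of the second chain, had 3852 in the mutant and 4897 in wild type, 1.27-fold lower in the mutant with a log2 ratio of -0.35. Among the 4504 probe sets in the brightest 10% of mean signal, 8.35% had a lower ratio. Col9a2 thus lay toward the low end of the bright probe sets but inside their central 95%, which ran from -0.54 to 0.36. In the narrower band of the top 2%, 5.11% had a lower ratio and the central 95% ran from -0.44 to 0.26.

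The probe sets of Col9a3, the gene of the third chain, did not give 1 value. The brightest (1460734_at) had 14844 in the mutant and 14981 in wild type, a log2 ratio of -0.01. A dimmer one (1460693_a_at), of a kind that can match several transcripts of its gene, had 8317 in the mutant and 10267 in wild type, a log2 ratio of -0.30. The difference of 0.29 between these ratios compares with a pooled SD of 0.14 between probe sets of a gene, over 846 genes with at least 2 probe sets in the brightest 10%. That SD describes single probe sets around the mean of their gene, and differences between probe sets spread more widely. The third (1420280_x_at), of a kind that may match unrelated transcripts, had 20.9 in the mutant and 20.1 in wild type, below the floor on both arrays. The level of Col9a3 in the mutant relative to wild type was therefore not settled beyond a range from -0.30 to -0.01.

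The balance between the chains of collagen IX can be read as differences of log2 ratios. Col9a2 was lower relative to Col9a1 by a difference of -0.37 with the brightest probe sets, and the pairs of probe sets ranged from -0.37 to -0.35. Relative to Col9a3 the difference was -0.33 or -0.04, depending on which Col9a3 probe set was used. Col9a3 relative to Col9a1 had a difference of -0.03 with the brightest probe sets and -0.32 at the lowest pair. Col9a2 has only 1 probe set, so its value could not be checked against another on the same arrays.

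Promoter windows of the partner chains Col9a1 and Col9a2 are shown because these genes supply the same trimer and had the most different ratios within it. They come from the RefSeq gene table of GRCm38.p6 and run from 250 bases before to 50 bases after an annotated start, read on the strand of the gene. Capitals mark words of a SOX core (ACAAAG, with T allowed in place of the first A, of the last A or of both), a GC box (GGGCGG) or a TATA box (TATAAA) on either strand. SOX9 and its partners SOX5 and SOX6 are known activators of the cartilage collagen genes. Col9a1 has a second annotated start, whose window held none of the words.
Col9a1 promoter, chr1:24177360-24177659, + strand: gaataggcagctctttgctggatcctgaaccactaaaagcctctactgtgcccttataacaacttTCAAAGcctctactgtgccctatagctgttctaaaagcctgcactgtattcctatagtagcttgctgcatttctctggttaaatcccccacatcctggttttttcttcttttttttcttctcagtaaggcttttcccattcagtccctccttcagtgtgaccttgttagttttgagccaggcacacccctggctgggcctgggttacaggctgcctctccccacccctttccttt
Col9a2 promoter, chr4:121039316-121039615, + strand: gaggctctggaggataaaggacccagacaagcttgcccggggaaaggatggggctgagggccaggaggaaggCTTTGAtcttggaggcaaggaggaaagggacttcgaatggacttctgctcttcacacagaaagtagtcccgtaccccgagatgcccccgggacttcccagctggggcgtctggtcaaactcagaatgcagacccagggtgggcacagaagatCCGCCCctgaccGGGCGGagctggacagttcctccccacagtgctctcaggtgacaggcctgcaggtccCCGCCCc
The Col9a1 window held 1 SOX core and no GC box, whereas the Col9a2 window held 3 GC boxes and 1 SOX core, with a GC content of 47.3% and 61.7%. Over all 32851 windows of the table, 44.0% held a SOX core, 35.7% a GC box and 13.6% a TATA box, so these words are common, and a match is no evidence of binding.

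Collagen XI, which sits inside the collagen II fibrils, had level signals for its first chain and slightly higher signals for its second. Col11a1 (1418599_at) had 17232 in the mutant and 17050 in wild type, a log2 ratio of 0.02. Its dimmer probe set (1449154_at) had 9673 in the mutant and 10438 in wild type, a log2 ratio of -0.11. The sign for Col11a1 thus depended on the probe set, and both values were small. Col11a2 (1423578_at) had 10099 in the mutant and 9124 in wild type, and its log2 ratio of 0.15 was the highest of the 12. Relative to Col11a1, Col11a2 was higher by 0.13 or 0.26 on the log2 scale, depending on the Col11a1 probe set.

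The windows of both collagen XI genes are shown from the same table with the same marking, since these partner chains also come from separate promoters.
Col11a1 promoter, chr3:114030290-114030589, + strand: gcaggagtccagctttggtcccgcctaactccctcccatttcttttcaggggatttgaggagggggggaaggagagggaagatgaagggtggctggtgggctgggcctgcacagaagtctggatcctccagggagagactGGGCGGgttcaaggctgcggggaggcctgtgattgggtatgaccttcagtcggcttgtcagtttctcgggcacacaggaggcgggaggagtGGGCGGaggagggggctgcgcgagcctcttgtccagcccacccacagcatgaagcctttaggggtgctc
Col11a2 promoter, chr17:34038888-34039187, + strand: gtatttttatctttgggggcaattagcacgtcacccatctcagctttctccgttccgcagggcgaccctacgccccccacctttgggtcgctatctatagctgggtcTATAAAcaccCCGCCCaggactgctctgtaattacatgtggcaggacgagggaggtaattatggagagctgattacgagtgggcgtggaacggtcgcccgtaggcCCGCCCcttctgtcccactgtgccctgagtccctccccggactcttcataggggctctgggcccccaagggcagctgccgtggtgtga
Each held 2 GC boxes and no SOX core, and the Col11a2 window also held a TATA box, with its first base 143 bases before the start. Of the 8 genes, 6 had at least 1 window in the table, Col10a1 and Col27a1 included. The Col10a1 window held a TATA box 32 bases before the start and 2 SOX cores, and the Col27a1 window held 2 GC boxes. Col2a1 and Col9a3 had none.

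Collagen X marks chondrocytes that have become hypertrophic. Col10a1 (1422253_at) had 4407 in the mutant and 4723 in wild type, 1.07-fold lower in the mutant with a log2 ratio of -0.10. Of 7 hypertrophic genes at or above the floor, 3 had positive and 4 negative log2 ratios, with a median of -0.03, against -0.02 over all 11329 genes at or above the floor. Of these 7, 1 differed 1.5-fold, against 3.72% of all genes at or above the floor, or 2.02% counting those lower in the mutant. That gene was Mmp13, the collagenase of hypertrophic cartilage that cleaves collagen II, with 426 in the mutant and 726 in wild type, a log2 ratio of -0.77 from 1 probe set. Col10a1 and Mmp13, both taken as signs of hypertrophy, thus differed in size of ratio, and no test of that difference was possible.

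Collagen XXVII was level. Col27a1 had 5476 in the mutant and 5556 in wild type by its brighter probe set (1453191_at), and 4231 in the mutant and 4134 in wild type by the other (1429549_at). The log2 ratios of -0.02 and 0.03 lay on either side of 0 and within the spread between probe sets given above.

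**Figure D2:**
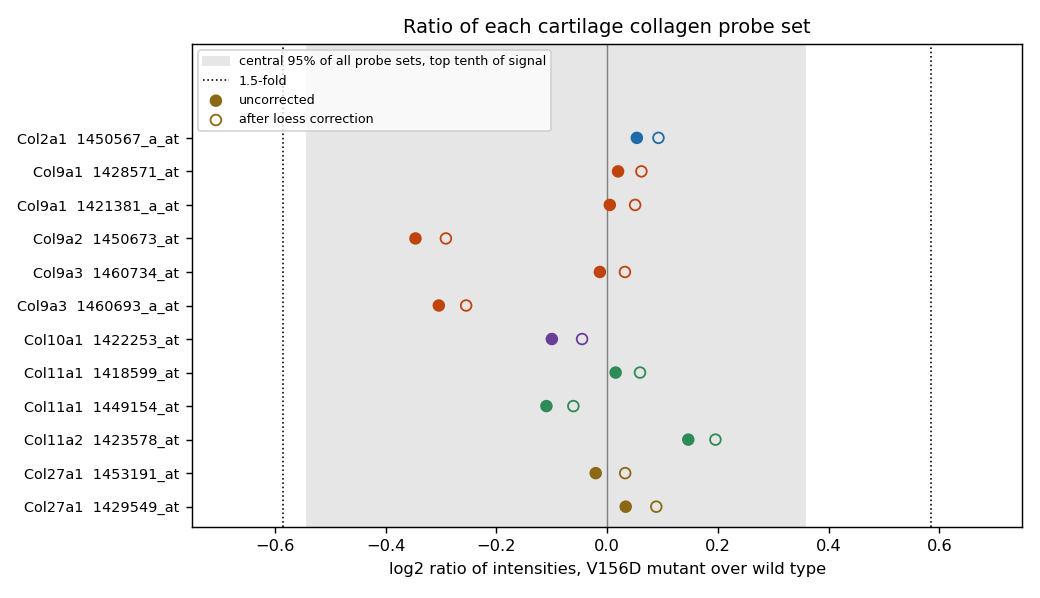
Log2 ratio of mutant over wild type (horizontal axis) for the 12 cartilage collagen probe sets at or above the floor, 1 row each, without correction (filled) and after a loess correction for signal (open). Grey marks the central 95% of all probe sets in the brightest 10%, from -0.54 to 0.36, and all 12 points lie inside it, with Col9a2 lowest at -0.35 and Col11a2 highest at 0.15.

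Ordered by the brightest probe set, the log2 ratios of the 8 genes ran from Col9a2 at -0.35 and Col10a1 at -0.10 through Col27a1 at -0.02, Col9a3 at -0.01, Col11a1 at 0.02, Col9a1 at 0.02 and Col2a1 at 0.05 to Col11a2 at 0.15. In that order only Col9a2 and Col10a1 were farther apart than the pooled SD of 0.14 between probe sets of a gene, and each of the other neighbours differed by less. As above, that SD is of single probe sets, and differences spread more widely. It measures how far probes disagree on these arrays, and says nothing of the spread between animals.

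Other fibrillar collagens had clearly unequal signals on the same arrays. Of the 7 genes for collagens I, III, V and XXIV, all at or above the floor, 5 had mutant signals at least 1.5-fold higher, against 1.70% of all genes at or above the floor, and the list median log2 ratio was 0.71. Col1a1, the main collagen chain of bone and tendon, had 7010 in the mutant and 2759 in wild type. Col5a2, a chain of the collagen V that nucleates collagen I fibrils, had 4268 in the mutant and 1716 in wild type. Col3a1 was 1.83-fold higher, Col24a1 1.64-fold and Col5a1, a close relative of the Col11a1 chain, 1.52-fold. Col24a1, whose ratio was also the list median, had 86.8 in the mutant but 52.9, below the floor, in wild type. The other members, Col1a2 and Col5a3, are given for completeness and had log2 ratios of 0.53 and -0.06. The ratios of the 8 cartilage collagen genes ran from -0.35 to 0.15 and those of these 7 genes from -0.06 to 1.35, so the ranges overlap through Col5a3. Both sets follow from the names of the collagens but were listed with earlier results of these data known, so the comparison is a description.

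Some of these other collagens gave smaller ratios by their brighter probe sets, and others did not. The brightest Col1a2 probe set, at 19270 in the mutant and 13342 in wild type, gave a log2 ratio of 0.53, whereas its dimmer probe sets gave 0.92 and 1.40. Col3a1 gave 0.87 by its brighter and 1.71 by its dimmer probe set. In contrast, from brighter to dimmer, Col1a1 gave 1.35 and 1.41, Col5a2 1.31 and 1.28, and Col5a1 0.61, 0.60 and 0.82. The cartilage collagen probe sets lie in the range of the brightest of these, and the part of signal strength in their small ratios was not tested. The fibroblast, tendon and perichondrium list had a median log2 ratio of 0.92 on the same arrays, with 7 of 12 genes at least 1.5-fold higher, against 1.70% of all genes at or above the floor. Beside Col1a1 and Col3a1 these were Col14a1 at 1.69, the tendon marker Tnmd at 1.54, Postn at 1.34, Thy1 at 1.19 and Dpt at 0.97. Thy1 had a wild-type intensity near the floor, at 58.3. The rest of the list, given for completeness, was Scx at 0.54, Col1a2 at 0.53, Dcn at 0.09, Fap at -0.06 and Pdgfra at -0.10. The list was therefore not raised throughout. The list shares Col1a1, Col1a2 and Col3a1 with the fibrillar list, and its part in the ratios was not tested.

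**Figure D3:**
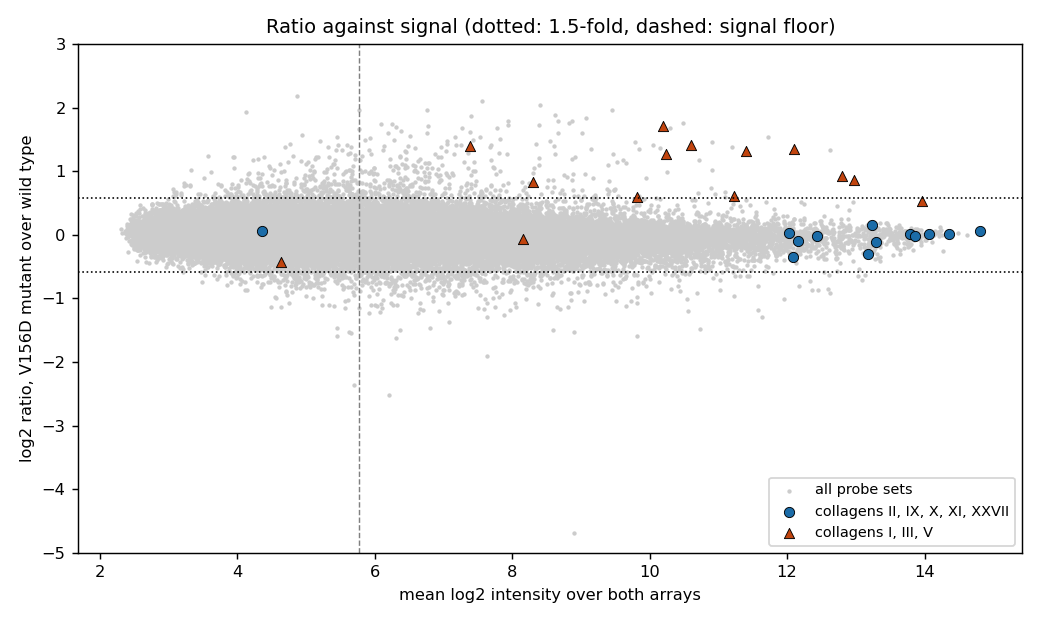
Log2 ratio of mutant over wild type (vertical axis) against mean log2 intensity (horizontal axis) for all 45037 probe sets (grey), the cartilage collagens (blue circles) and collagens I, III and V (orange triangles). The blue points lie along 0 at the bright end apart from 1 below the floor, while 12 orange points lie at or above the 0.53 of Col1a2 and both Col5a3 points lie below 0.

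Set against every other collagen gene on the array, taken by the form of the symbol after the values were seen, the cartilage collagens lay at the low end. Of 27 other collagen genes at or above the floor, 21 had log2 ratios above 0 and 10 differed 1.5-fold, all of them higher in the mutant, against 1.70% of all genes at or above the floor, and the median of the 27 was 0.45. Among the 10, Col13a1 and Col24a1 were below the floor in wild type, at 36.7 and 52.9, with 86.4 and 86.8 in the mutant. Col17a1, not among the 10, was below it in the mutant, at 49.4 against 61.6 in wild type. The 15 of the 27 in the brightest 10% all had ratios above 0, between 0.11 and 1.69, with a median of 0.53. The median of the 8 cartilage genes was 0.00. Col14a1, a fibril-associated collagen of fibrous tissue, was the highest at 2266 in the mutant and 705 in wild type, followed by Col4a1, a basement membrane chain, at 1459 in the mutant and 532 in wild type. Collagen VI genes, whose products form the pericellular filaments around chondrocytes, were nearer to 0, with Col6a1 at 0.18, Col6a2 at 0.11 and Col6a3 at 0.18.

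**Figure D4:**
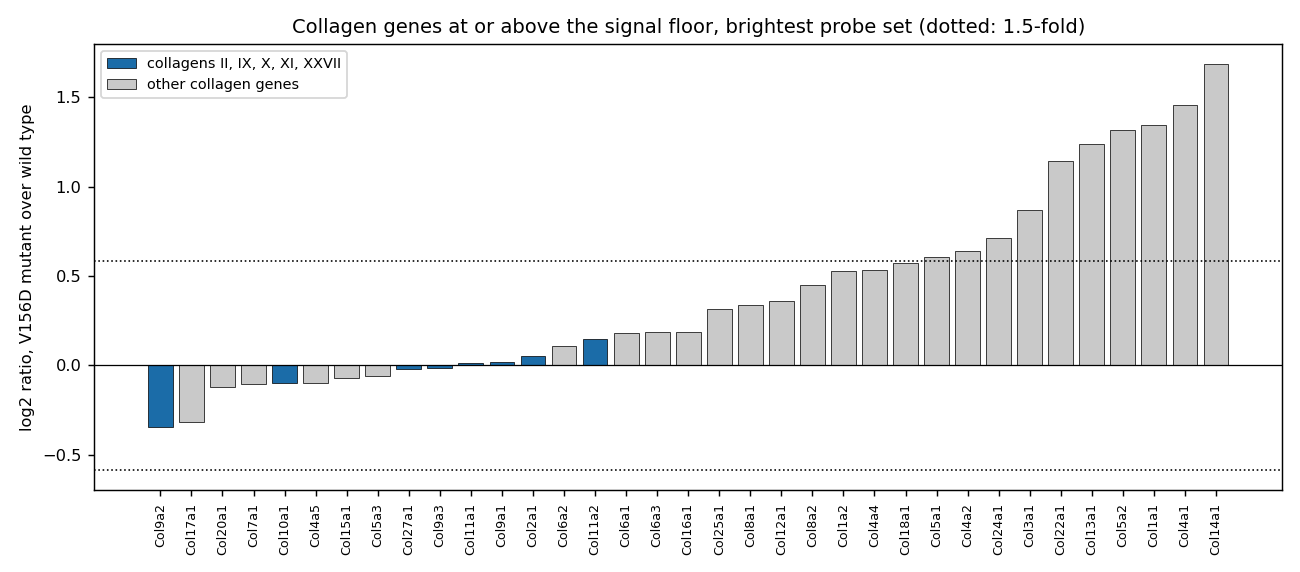
Log2 ratio of mutant over wild type (vertical axis, bars from 0) for the 8 cartilage collagen genes (blue) and the 27 other collagen genes at or above the floor (grey), ordered by value. The blue bars run from -0.35 for Col9a2 to 0.15 for Col11a2, and the grey bars reach 1.69 for Col14a1.

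Transcripts of proteins that share the fibrils with these collagens were similarly level. All 12 fibril partners lay at or above the floor, 7 with positive and 5 with negative log2 ratios, with a median of 0.05 and none 1.5-fold different, against 3.72% of all genes. The highest was Prelp, a leucine-rich proteoglycan that binds collagen, at 1884 in the mutant and 1754 in wild type. The lowest was Ucma, a small secreted cartilage protein, at 5864 in the mutant and 7611 in wild type, but -0.01 was the log2 ratio of its other probe set.

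Regulators of the cartilage collagen genes had mostly small ratios. Of 9 at or above the floor, 3 had positive and 6 negative log2 ratios, with a median of -0.03. None differed 1.5-fold, which with 3.72% of all genes doing so lies near the background. Sox9, the main activator of Col2a1, Col9a1 and Col11a2, was the lowest at 2555 in the mutant and 3134 in wild type, a log2 ratio of -0.29, and its other probe set gave -0.49. Sox5 and Sox6, chosen after their values were seen, had -0.03 and -0.07 by their brightest probe sets. All probe sets at or above the floor ranged from -0.21 to 0.33 for Sox5 and from -0.31 to -0.07 for Sox6. Mef2c, a factor that promotes hypertrophy and Col10a1, was the highest at 253 in the mutant and 201 in wild type, a log2 ratio of 0.33. Sox9 was thus 1.23-fold lower while Col2a1 was 1.04-fold higher, both sizes below the 1.5-fold threshold.

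Enzymes and chaperones that make collagen were mostly near 0. Of 15 at or above the floor, 12 had positive and 3 negative log2 ratios, with a median of 0.10, and 2 were at least 1.5-fold higher, against 1.70% of all genes. These were Pcolce, an enhancer of procollagen C-propeptide cleavage, with 2723 in the mutant and 1351 in wild type, and Lox, the crosslinking enzyme, with 2090 in the mutant and 1321 in wild type. Serpinh1, the collagen chaperone HSP47, also chosen after its value was seen, was the lowest at 6915 in the mutant and 8430 in wild type, with log2 ratios of -0.29 and -0.25 from its probe sets. The prolyl hydroxylase genes P4ha1 and P4ha2, likewise chosen after their values were seen, had 0.06 and -0.01, although a dimmer P4ha1 probe set gave -0.28.

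Genes of collagen breakdown and collagen receptors divided evenly. Of 10 at or above the floor, 5 had positive and 5 negative log2 ratios, with a median of -0.07, and 2 differed 1.5-fold, against 3.72% of all genes. Ctsk, a collagen-degrading protease best known from osteoclasts, had 1095 in the mutant and 498 in wild type, a log2 ratio of 1.14 from 1 probe set. Mmp13 was the other, lower in the mutant as given above. Itga10, the integrin chain of a collagen II receptor on chondrocytes, was chosen after its value was seen and had 1753 in the mutant and 1597 in wild type. Markers of other tissues moved unevenly. The median was 0.85 over 4 endothelial genes at or above the floor and 0.24 over 2 osteoblast genes. It was 0.01 over 3 blood and macrophage genes and -0.23 over 4 skeletal muscle genes, and none of the listed genes was at 0. Of the 4 endothelial genes, Cdh5 at 1.39 and Emcn at 1.34 were at least 1.5-fold higher, against 1.7% of all genes. In wild type Cdh5 had an intensity of 55.1, near the floor, and Emcn 38.2, below it. The others, given for completeness, were Kdr at 0.35 and Egfl7 at -0.19, the latter with 181 in the mutant and 206 in wild type.

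**Figure D5:**
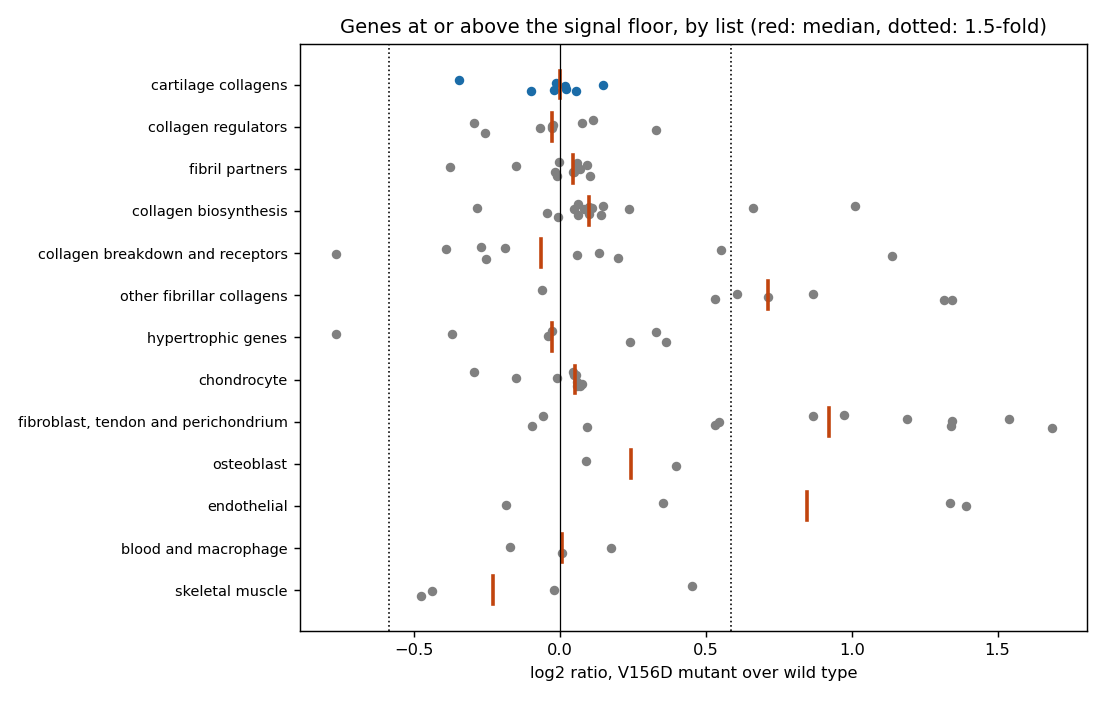
Log2 ratio of mutant over wild type (horizontal axis) of single genes at or above the floor (points, spread vertically for legibility) by list, with the list median in red and 1.5-fold as dotted lines. The cartilage collagens, fibril partners and chondrocyte markers lie close to 0, with medians of 0.00, 0.05 and 0.05, whereas the other fibrillar collagens and the fibroblast, tendon and perichondrium list have medians of 0.71 and 0.92.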

How the data were processed

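The deposited table holds linear intensities of 45037 probe sets on 2 arrays. MAS5 is named in the submitters' processing notes, with no version or settings, and how signals were scaled or corrected for background could not be learned from the labels. The SD of the log2 ratio was 0.17 in the weakest 10% of probe sets and 0.24 in the brightest 10%, so differences at low signal may have been compressed. The log2 of each value was used without further normalization. Names came from GEO's platform annotation, checked by Entrez identifier against the RefSeq table of GRCm38.p6, where all 13 collagen probe sets were found. No coordinates of probe sets are given, since no build is tied to them.

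The brightest probe set, by mean log2 over both arrays, stood for its gene. No test was possible with 1 array per genotype, and no p-value is given. All 8 collagens are named with every probe set. Of each related list, the members at least 1.5-fold different, or otherwise the highest and lowest at or above the floor, are named. Others are marked as chosen later or given for completeness. For the osteoblast, blood and macrophage and skeletal muscle lists no log2 ratios of single genes are given. The members and lists were chosen with earlier results of these data known. Alternatives were median centring, quantile normalization, a loess correction (span 0.3), an offset of 32, other floors (40th and 60th percentile, none), folds (1.2, 2 and 3) and probe set choices. The scripts were tested on simulated data. Python 3.11.15, numpy 2.4.6, pandas 2.3.3, statsmodels 0.14.6 and matplotlib 3.10.9 were used.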

Additional observations from a re-analysis of the deposited data

How the results depend on the processing

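The median log2 ratio of the cartilage collagen probe sets ranged from -0.03 to 0.04 over the alternatives, and that of the genes from -0.02 to 0.05. Col9a2 ranged from -0.37 to -0.28 and Col11a2 from 0.13 to 0.20, whereas Col9a1, Col11a1, Col9a3 and Col27a1 lay near enough to 0 to change sign with the correction. No value that differed 1.5-fold was reversed. Of the cartilage collagen probe sets 2 differed at 1.2-fold and 0 at 1.5-fold, 2-fold and 3-fold. A value was taken as moved when it shifted by more than the pooled SD of 0.19 between probe sets of a gene, since no replicate spread exists.

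The counts of the related lists followed the fold threshold. At 1.2-fold they were 2 of 9 collagen regulators, 1 of 12 fibril partners and 3 of 15 biosynthesis genes. Also counted were 5 of 10 breakdown and receptor genes, 6 of 7 other fibrillar collagens and 4 of 7 hypertrophic genes. The marker lists had 1 of 10 chondrocyte and 9 of 12 fibroblast, tendon and perichondrium genes. They also had 1 of 2 osteoblast, 3 of 4 endothelial, 3 of 4 muscle and 0 of 3 blood and macrophage genes. Of all 11329 genes at or above the floor, 2404 differed 1.2-fold. At 2-fold they were 1 of 15 biosynthesis genes, 1 of 10 breakdown and receptor genes and 2 of 7 other fibrillar collagens. The fibroblast, tendon and perichondrium list had 5 of 12 and the endothelial list 2 of 4. Every other list, the hypertrophic one included, had 0. Of all 11329 genes at or above the floor, 103 differed 2-fold. At 3-fold they were 1 fibroblast, tendon and perichondrium gene and 0 in the biosynthesis, breakdown, fibrillar, hypertrophic and endothelial lists. The median of the other fibrillar collagens was 0.92 without the less specific probe sets (those with an s, x or a before the _at of their name) and 0.95 as the mean over probe sets, and the biosynthesis count was 1 under either. The other fibrillar collagen count was 6 of 7 under either, 4 of 7 with the offset and 4 of 6 with the floor at the 60th percentile. The breakdown and receptor count was 3 of 10 under quantile normalization and under the loess correction. The short lists of other tissues moved most. The endothelial median was 0.58 with the offset, 0.55 as the mean over probe sets, 1.04 with the floor at the 40th percentile and 0.35 at the 60th. Its count was 4 with the floor at the 40th percentile, 1 at the 60th, 5 with no floor and 1 without the less specific probe sets. The skeletal muscle median was 0.22 without those probe sets, -0.44 with the floor at the 60th percentile and -0.014 with no floor, where the osteoblast count was 1. The cause of these shifts was not tested. The number of endothelial genes entering changed with the floor and without the less specific probe sets. It stayed at 4 with the offset and with the mean over probe sets. No paired analysis was possible because each genotype has 1 array. The muscle, endothelial and osteoblast lists each held genes below the floor, although Tnnt3 of the muscle list lay far above it. All cartilage collagen values but 1 lie far above the floor.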
